A study of Mus musculus with 34 samples.

Results

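Thalamus from mice whose brain myeloid cells had been replaced from the bone marrow (GFP-BM REPOP) was compared with thalamus from untreated mice (WT CON), by RNA-seq of whole tissue. The comparison rests on 8 of the 34 libraries of the series, 4 from GFP-BM REPOP and 4 from WT CON mice, chosen by the region and treatment in their labels. Each of these 8 came from a separate C57BL/6 mouse, and the mice were male. The study's methods give a starting age of 1.5 months unless stated otherwise, and another passage of it gives an older age at irradiation, so that the age is uncertain. WT CON mice received vehicle and were not irradiated. GFP-BM REPOP mice received 1000 cGy of whole-body irradiation and bone marrow of donors that carry EGFP under the ubiquitous CAG promoter. After 3.5 months they were given PLX3397, an inhibitor of the CSF1 receptor on which microglia depend, at 600 ppm in the diet for 14 days, and then 6 months of recovery without it. GFP-BM CON mice (3 thalamus libraries) had the irradiation and the marrow without the inhibitor, and their levels are set beside the others here. Irradiation, marrow and inhibitor all set the repopulated mice apart from the WT CON mice, so that their shares in a difference cannot be told apart in this comparison. The thalamus was dissected together with the striatum.

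Microglia are the resident macrophages of the brain and depend on CSF1 receptor signalling. When they are depleted after irradiation, monocytes from the blood enter the tissue, take up the empty places and stay as macrophages. Such cells keep part of their own expression program, with more of the genes of circulating myeloid cells and less of those of microglia. A signature of 24 genes for these cells was set aside here. It holds the 23 genes that the study's text names and Cybb, a subunit of the phagocyte NADPH oxidase, which that text does not name. Cybb was a DEG, and with it counted outside the signature there would be 79 DEGs outside instead of 78. The genes described here are those outside that list, and the signature enters as counts and medians alone, because it was chosen on libraries of this series and is not independent evidence.

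The authors deposited FPKM values, which are reads scaled by gene length and by library size. All fold changes are on the scale of log2(FPKM + 0.1), which understates the change of genes with low values, and standard errors (SE) and adjusted p values are from limma-trend with Benjamini-Hochberg adjustment over all genes, in 1 fit of the 11 thalamus libraries. Of 16389 genes, 14433 reached 1 FPKM in at least 3 thalamus libraries, and 14107 of these were tested after 326 of other biotypes than protein-coding or long non-coding were left out. Of the 78 DEGs described below, 27 reached 1 FPKM in no WT CON library. Gpr65, Clec7a, Clec12a and AB124611 reached it in GFP-BM REPOP libraries alone, so that they entered the test through the group in which they were high. The same holds for Ms4a6b, Ms4a6c and Cybb of the signature. A gene with an adjusted p under 0.05 is called a differentially expressed gene (DEG). In this whole tissue, fewer cells of a type and less RNA per cell cannot be told apart.

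Whole reads recovered from the values came to between 17969202 and 24146269 per thalamus library. WT CON replicate 2 stood apart from its group, with a median correlation of 0.918 to the other WT CON libraries where the other 10 thalamus libraries had 0.967 to 0.985 with their own groups. The defining markers of both tissues in the dissection were present in every library. Summed over 12 thalamus genes, WT CON libraries held 183 to 365 FPKM and GFP-BM REPOP libraries 183 to 326 FPKM. Summed over 17 striatum genes they held 480 to 1710 and 592 to 922 FPKM, with the highest value in WT CON replicate 3. Prkcd, Slc17a6 and Ramp3 were the 3 most abundant thalamus genes, and Ppp1r1b, Penk and Scn4b the 3 most abundant striatum genes. By limma-trend, 0 of the 12 and 0 of the 17 had an unadjusted p under 0.05 between the groups.

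The comparison gave 93 DEGs, 85 higher and 8 lower in repopulated thalamus, or 0.603% and 0.0567% of the genes tested. With quantile-normalized values there were 378 higher and 137 lower. The signature held 15 of them and 78 lay outside it, of which 75 rose and 3 fell. At an unadjusted p under 0.05, 2126 genes were higher (15.1%) and 1441 lower (10.2%). The values of the 4 and 4 libraries did not overlap for 1708 higher genes (12.1%) and 993 lower genes (7.04%), and all 78 DEGs outside the signature were among these. The 75 genes that rose had fold changes between 0.46 and 3.50 on the log2 scale, with a median of 2.25, and 52 of them lay above 2, whereas the median over all genes was -0.06. Of the signature, the 11 rising genes that could be tested had a median of 2.00 with 10 DEGs, and the 8 falling genes a median of -1.66 with 5 DEGs. Some of the rising genes entered the test through GFP-BM REPOP libraries alone, so that their count and median are partly built in.

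These counts depended on single libraries of both groups. They fell to 12 DEGs without GFP-BM REPOP replicate 3, to 16 without GFP-BM REPOP replicate 1 and to 15 without WT CON replicate 3. Without WT CON replicate 1, which was the highest of its group for 62 of the 75 genes and so the closest to the GFP-BM REPOP libraries, there were 1359 higher (9.63%) and 384 lower DEGs (2.72%). Without WT CON replicate 2, which was the lowest of its group for 50 of the 75, there were 53 higher (0.376%) and 13 lower (0.0922%). Among all genes tested, replicate 1 was the highest WT CON library for 27.1% and replicate 2 the lowest for 36.4%. All 78 genes outside the signature were DEGs without replicate 1 and 29 were without replicate 2. Their direction could not change in any of the 11 fits that left out a library, because their WT CON and GFP-BM REPOP values did not overlap. Most were not DEGs in most of these 11 fits: 55 of the 78 passed in at most 3 of them and 12 in just 1. Kcnq3, Rad50 and Slf1 passed in 1, and Kcna3, Erbb4, Malat1, Smc5 and Smc6 in 2. When the spread was estimated from all 9 groups of the series, 1479 genes were higher (10.5%) and 466 lower (3.3%). That fit did not have the animal as block, although the regions share mice.

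A first group of rises was made up of genes known from myeloid cells. They were grouped after their values were seen, and 7 are given here: Gpr65, Mndal, Ctsc, Clec12a, Clec7a, Mpeg1 and AB124611. In each of them the GFP-BM CON mean lay below the lowest GFP-BM REPOP library, and in all but Mpeg1 it lay above the WT CON mean. Such a choice can itself give a shared pattern, and other DEGs outside the signature lacked it. Igf1 was at 0.715 to 1.43 FPKM in GFP-BM CON and 0.88 to 1.75 FPKM in GFP-BM REPOP libraries. All 7 were DEGs, with fold changes between 0.76 and 2.68.

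Gpr65 encodes a proton-sensing receptor of leukocytes (chr12:98268635-98276722, GRCm38.p6). It stood at 0.0786, 0.0708, 0.0774 and 0.0452 FPKM in the 4 WT CON libraries and at 1.16, 0.624, 1.06 and 1.14 FPKM in the 4 GFP-BM REPOP libraries. The 3 GFP-BM CON libraries lay between the groups, at 0.246, 0.253 and 0.207 FPKM. These levels correspond to 2 to 4 reads per WT CON library and 27 to 53 per GFP-BM REPOP library. Gpr65 rose by 2.68 (SE 0.25, adjusted p = 0.00147, limma-trend), had the smallest p of all genes outside the signature, and was a DEG in all 11 fits that left out a library.

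Mndal, an interferon-inducible gene of the p200 family on chromosome 1, was at 0.307, 0.0503, 0.165 and 0.145 FPKM in WT CON and at 1.59, 1.31, 1.51 and 1.31 FPKM in GFP-BM REPOP libraries. It was at 0.831, 1.22 and 0.793 FPKM in GFP-BM CON libraries, closer to the repopulated than to the untreated mice. It rose by 2.60 (SE 0.29, adjusted p = 0.00461, limma-trend). Ctsc, the lysosomal protease that activates the serine proteases of myeloid granules, stood at 2.5, 2.84, 2.44 and 2.36 FPKM in WT CON libraries. It stood at 5.38, 4.76, 5.02 and 6.82 FPKM in GFP-BM REPOP libraries, a rise of 1.08 (SE 0.13, adjusted p = 0.00944, limma-trend). The GFP-BM CON libraries, at 2.90 to 3.40 FPKM, were near the untreated ones. Gpr65, Mndal and Ctsc were the 3 genes outside the signature that remained DEGs whichever library was left out. The gene filter was not renewed in these fits. Gpr65 met it in the minimum of 3 libraries, all of GFP-BM REPOP mice, and would have failed it without any 1 of them.

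Clec7a (dectin-1, a receptor for fungal glucans) and Clec12a (an inhibitory receptor of myeloid cells) are C-type lectins that lie near each other on chromosome 6. Clec7a was at 0.304 to 0.444 FPKM in WT CON libraries, at 0.440 to 0.813 in those of GFP-BM CON mice and at 1.15 to 2.01 after repopulation. It rose by 1.75 (SE 0.25, adjusted p = 0.0199, limma-trend). The study already names Clec7a as a member of a co-expression module that was higher in GFP-BM REPOP mice, built on libraries of this series. Clec12a was at 0.130 to 0.549, 0.530 to 0.732 and 1.35 to 1.57 FPKM in the same groups and rose by 1.95 (SE 0.29, adjusted p = 0.0213, limma-trend). Both were DEGs in 8 of the 11 fits that left out a library.

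Mpeg1, which encodes the pore-forming protein perforin-2 of macrophages, was the most abundant of the 7. It was at 6.76 to 8.13 FPKM in WT CON libraries, at 7.2 to 7.73 in those of GFP-BM CON mice and at 10.5 to 15.8 after repopulation, and rose by 0.76 (SE 0.12, adjusted p = 0.0327, limma-trend). AB124611 was at 0.176 to 0.449, 0.575 to 0.828 and 1.04 to 1.29 FPKM and rose by 1.63 (SE 0.24, adjusted p = 0.0199, limma-trend). Cd59a, an inhibitor of complement that many cell types carry, rose by 0.85, from 7.78 ± 1.38 to 14.1 ± 2.55 FPKM (SD, n = 4 each; adjusted p = 0.0481, limma-trend). Dynlt1b, a dynein light chain, rose by 0.76, from 10.3 ± 0.769 to 17.5 ± 2.70 FPKM (SD, n = 4 each; adjusted p = 0.0199, limma-trend). The last of these has near-identical copies in the mouse genome, and its value is uncertain for that reason.

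**Figure D1:**
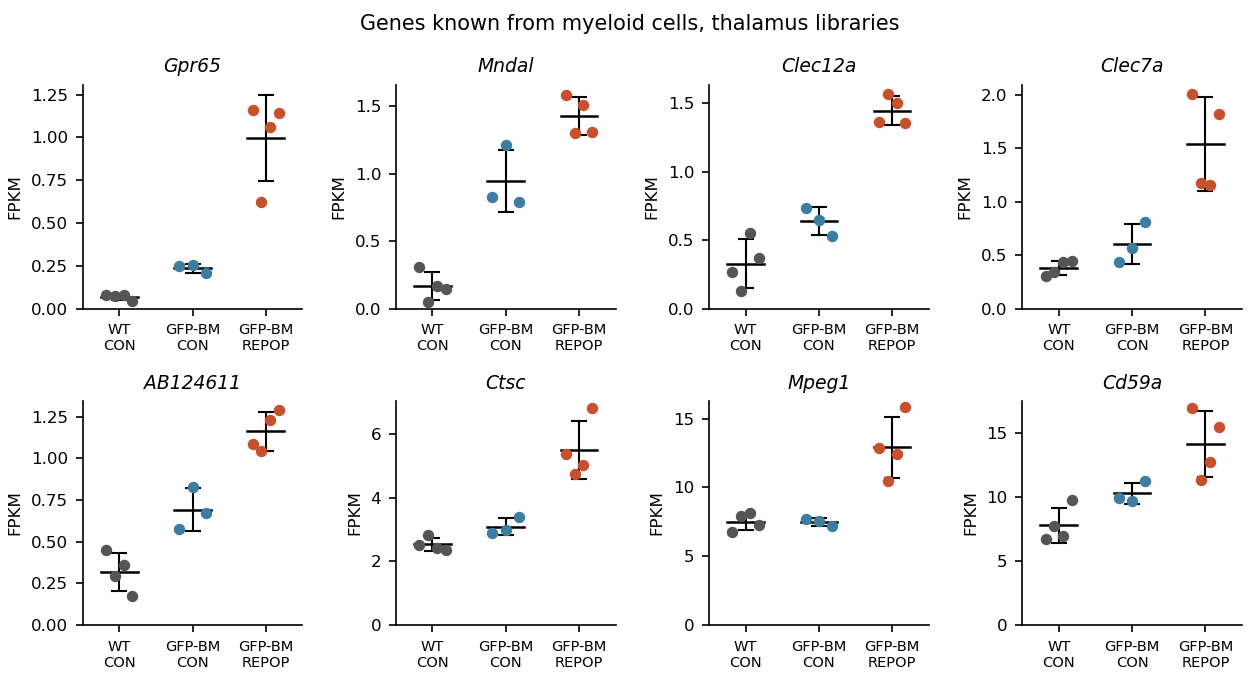
FPKM (vertical axis) of 8 DEGs outside the signature, 7 of them known from myeloid cells and Cd59a, in the 11 thalamus libraries, by group. Points are libraries, and the line and whiskers are the group mean and SD; the GFP-BM REPOP points lie above the WT CON points in each panel.

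The lists of myeloid markers held few further calls. Of 14 genes of bone marrow-derived macrophages, 7 could be tested, and Clec12a alone was a DEG. At an unadjusted p under 0.05, 4 (57.1%) were higher and 1 (14.3%) lower, against 15.1% and 10.2% of all genes. Clec12a, and Clec7a of the next list, met the gene filter in GFP-BM REPOP libraries alone, so that these counts are partly built in. The median of the 7 was 0.74. Of 13 tested genes of disease-associated microglia, Clec7a alone was a DEG, and the median was 0.08. Of 17 homeostatic microglia genes 0 were DEGs, but 7 (41.2%) were lower at an unadjusted p under 0.05, against 10.2% of all genes, and 2 were higher. Their median was -0.16. Tmem119, a surface protein of microglia, was at 9.24 to 17.5 FPKM in WT CON and 5.38 to 7.15 FPKM in GFP-BM REPOP libraries without overlap, with a difference of -0.92 (SE 0.19, adjusted p = 0.0521, limma-trend).

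Another 8 rises were in genes of receptors, channels, vesicle and adhesion proteins known from neurons, grouped after their values were seen. Gabra2, Gabrb1, Kcnq3, Kcna3, Lrrtm2, Pcdh11x, Syt10 and Erbb4 rose by 1.51 to 3.50 on the log2 scale. In each of them the fitted mean of repopulated mice differed from that of GFP-BM CON mice by 0.00 to 0.16 in size on that scale, while single libraries of both groups spread more widely, and WT CON replicate 1 was the highest of its group. No value for these genes in a WT CON library reached the lowest GFP-BM REPOP value.

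GABA-A receptors are chloride channels of several subunits that mediate fast inhibition in the brain, and the alpha and beta subunits together form the site at which GABA binds. Of the 15 subunit genes tested, 2 were DEGs and 8 (53.3%) were higher at an unadjusted p under 0.05, with 0 lower, against 15.1% of all genes. The median of the 15 was 1.02. Gabra2, the alpha2 subunit (chr5:70958392-71095849, GRCm38.p6), had the largest rise outside the signature. It was at 4.61, 0.582, 1.28 and 1.65 FPKM in WT CON and at 16.4, 16.2, 31.3 and 15 FPKM in GFP-BM REPOP libraries. It was at 16.3, 20.5 and 16.4 FPKM in GFP-BM CON libraries, which lay within the range of the GFP-BM REPOP libraries. Its rise was 3.50 (SE 0.48, adjusted p = 0.0155, limma-trend). Gabrb1, the beta1 subunit, lies on the same chromosome. It was at 6.76, 2.76, 3.30 and 4.08 FPKM in WT CON and at 10.6, 13, 14.9 and 11.3 FPKM in GFP-BM REPOP libraries, and it rose by 1.61 (SE 0.25, adjusted p = 0.0253, limma-trend).

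Among 33 potassium channel genes, 1 was a DEG, and 6 (18.2%) were higher and 1 lower at an unadjusted p under 0.05, a share near the 15.1% of all genes. Kcnq3, a subunit of the M-current channel, was at 8.87, 3.49, 3.93 and 4.15 FPKM in WT CON and at 11.2 to 17.3 FPKM in GFP-BM REPOP libraries and rose by 1.51 (SE 0.27, adjusted p = 0.0481, limma-trend). Kcna3, a delayed-rectifier channel of neurons and leukocytes outside that list, was at 0.740 to 1.95 and 2.57 to 8.41 FPKM and rose by 2.15 (SE 0.40, adjusted p = 0.0489, limma-trend). Kcnt2, another potassium channel gene outside it, was at 0.352 to 0.835 and 1.3 to 3.04 FPKM and rose by 1.98 (SE 0.36, adjusted p = 0.0481, limma-trend). Of 24 glutamate receptor genes 0 were DEGs, and 8 (33.3%) were higher and 1 lower at an unadjusted p under 0.05. Of these Gria2, the AMPA receptor subunit that limits calcium entry, had the smallest p. It was at 3.25 to 18.8 FPKM in WT CON and 26 to 65.8 FPKM in GFP-BM REPOP libraries, a difference of 2.71 (adjusted p = 0.0521, limma-trend). Grin1, the obligatory NMDA receptor subunit and the most abundant gene of that list, was at 79.0 to 117 and 70.0 to 82.2 FPKM, a difference of -0.33 (adjusted p = 0.14, limma-trend).

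Pcdh11x, a protocadherin of the X chromosome, was at 0.571, 0.161, 0.176 and 0.298 FPKM in WT CON and at 3.11, 3.64, 3.47 and 1.2 FPKM in GFP-BM REPOP libraries. It rose by 2.88 (SE 0.41, adjusted p = 0.0174, limma-trend) and was the only DEG among 21 cadherins and protocadherins, of which 12 (57.1%) were higher and 1 lower at an unadjusted p under 0.05. Over all genes, 15.1% were higher and 10.2% lower at that threshold. Lrrtm2, a postsynaptic partner of neurexins, rose by 2.10 (SE 0.39, adjusted p = 0.0481, limma-trend) and was the only DEG among 27 postsynaptic scaffold and adhesion genes, whose median was -0.01. Syt10, a calcium sensor of vesicle release, rose by 2.24, from 0.793 ± 0.378 to 3.94 ± 1.29 FPKM (SD, n = 4 each; adjusted p = 0.0455, limma-trend). Erbb4, the neuregulin receptor of interneurons, rose by 2.15, from 1.40 ± 0.844 to 6.23 ± 2.21 FPKM (SD, n = 4 each; adjusted p = 0.0455, limma-trend). Xkr4 and Dgkh (diacylglycerol kinase eta) were among the 8 smallest p outside the signature, with rises of 1.97 and 2.33 (SE 0.27 and 0.32, adjusted p = 0.0155 each, limma-trend).

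**Figure D2:**
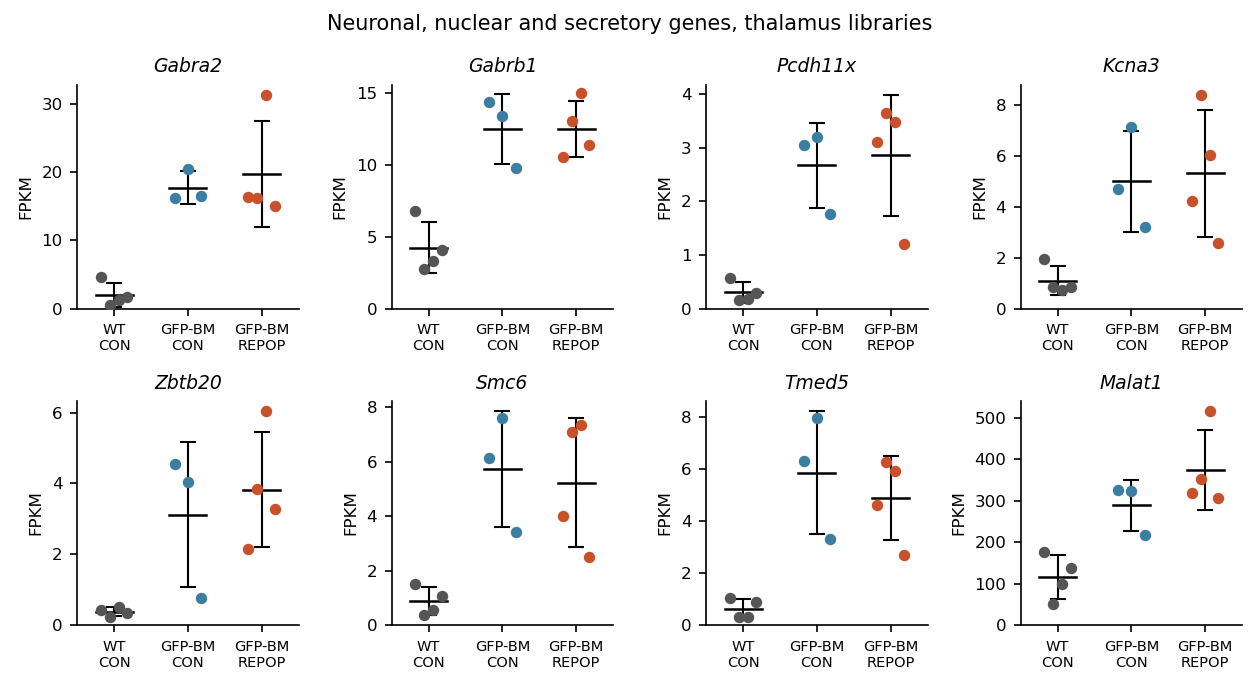
FPKM (vertical axis) of 8 DEGs outside the signature in the 11 thalamus libraries, by group. Points are libraries, and the line and whiskers are the group mean and SD; the GFP-BM CON and GFP-BM REPOP points overlap in each panel and lie above the WT CON points.

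The 334 zinc finger genes with a Zfp symbol, most of which encode DNA-binding repressors, held 8 DEGs, all higher: Zfp40, Zfp51, Zfp72, Zfp81, Zfp433, Zfp458, Zfp943 and Zfp944. Their fold changes lay between 1.78 and 2.72. At an unadjusted p under 0.05, 128 (38.3%) were higher and 12 (3.59%) lower, against 15.1% and 10.2% of all genes. The median was 0.44, or 0.15 without WT CON replicate 2. Of the 8, Zfp40, Zfp51, Zfp81, Zfp943 and Zfp944 lie on chromosome 17, and Zfp72 and Zfp458 on chromosome 13. Genes of these clusters resemble each other in sequence, so that the split of reads among them is uncertain. Zfp40 was at 0.340, 0.177, 0.106 and 0.169 FPKM in WT CON and at 1.18, 2.84, 3.00 and 0.983 FPKM in GFP-BM REPOP libraries, and rose by 2.72 (SE 0.50, adjusted p = 0.0481, limma-trend). Zfp51 rested on 1 to 9 reads per WT CON library and 21 to 81 per GFP-BM REPOP library.

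Zbtb20, a transcriptional repressor of neural and glial development, was at 0.424, 0.214, 0.513 and 0.351 FPKM in WT CON and at 2.15, 3.84, 6.03 and 3.27 FPKM in GFP-BM REPOP libraries. It rose by 3.00 (SE 0.51, adjusted p = 0.044, limma-trend). The GFP-BM CON libraries were apart from each other, at 4.55, 4.03 and 0.762 FPKM. Arid4b, a subunit of a histone deacetylase complex, rose by 2.78 (SE 0.53, adjusted p = 0.0498, limma-trend). Sycp3, a component of the synaptonemal complex of meiosis, rose by 2.79 (SE 0.48, adjusted p = 0.0441, limma-trend).

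Smc5 and Smc6, which form the core of the SMC5/6 complex of DNA repair, Slf1, which links that complex to sites of damage, and Rad50, of the complex that senses double-strand breaks, were DEGs as well. They were singled out after their values were seen, and no list of DNA repair genes was counted beside them. Smc6 was at 1.49, 0.369, 0.534 and 1.07 FPKM in WT CON and at 3.99, 7.07, 7.33 and 2.5 FPKM in GFP-BM REPOP libraries. It was at 6.13, 7.61 and 3.42 FPKM in GFP-BM CON libraries, all above the WT CON libraries. The rises were 2.30 for Smc5 (adjusted p = 0.0481), 2.5 for Smc6 (adjusted p = 0.0481), 2.20 for Slf1 (adjusted p = 0.0498) and 2.09 for Rad50 (adjusted p = 0.0481, all limma-trend). Polb, which encodes DNA polymerase beta, was a DEG with a smaller rise of 0.46 (adjusted p = 0.0498, limma-trend).

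Further rises among the 12 largest were in Tmed5, a cargo receptor of the early secretory pathway, Rb1cc1, which starts autophagosome formation, and Lrch2. They rose by 2.79 to 2.85. D130040H23Rik was at 0.048 to 0.413 FPKM in WT CON and 2.07 to 4.21 FPKM in GFP-BM REPOP libraries, a rise of 3.20 (SE 0.41, adjusted p = 0.0101, limma-trend) that passed in 10 of the 11 fits that left out a library. B230209E15Rik, with no GC content on record here, rose by 3.23 (SE 0.51, adjusted p = 0.0272, limma-trend). Of 9 abundant long non-coding RNAs, 6 (66.7%) were higher at an unadjusted p under 0.05, against 15.1% of all genes, and 1 was a DEG. That was Malat1, a nuclear RNA of speckles, at 177, 51.0, 98.7 and 138 FPKM in WT CON and 318, 353, 517 and 307 FPKM in GFP-BM REPOP libraries. It rose by 1.79 (SE 0.34, adjusted p = 0.0498, limma-trend).

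The 3 falls outside the signature were Fam205a2, Fam205a3 and Fam205a4, near-identical copies of 1 gene on chromosome 4. Their values were almost equal in each library, so that reads may be shared among them, and they count as 1 uncertain observation. Fam205a3 was at 6.92, 5.71, 5.28 and 6.25 FPKM in WT CON and at 2.83, 4.38, 2.93 and 2.51 FPKM in GFP-BM REPOP libraries. It fell by 0.94 on the log2 scale (SE 0.17, adjusted p = 0.0481, limma-trend), and the GFP-BM CON libraries, at 3.72 to 4.29 FPKM, lay below the WT CON libraries and within the GFP-BM REPOP range.

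Other gene lists had lower medians without a DEG, set against 10.2% of all genes lower at an unadjusted p under 0.05. Of 76 cytosolic ribosomal protein genes, 29 (38.2%) were lower and 0 higher at an unadjusted p under 0.05, with a median of -0.22. Of 76 nuclear genes of the respiratory chain, 22 (28.9%) were lower and 0 higher, with a median of -0.20. The members with the smallest p were Rpl7a (-0.42, adjusted p = 0.0738) and Ndufs7 (-0.39, adjusted p = 0.0876, both limma-trend). Of 10 genes of the ATF4 stress response and one-carbon metabolism, 7 were lower and 1 higher, with a median of -0.35. There Mthfd2, a mitochondrial folate enzyme, was at 6.43 to 8.91 FPKM in WT CON and 4.47 to 5.46 FPKM in GFP-BM REPOP libraries (-0.63, adjusted p = 0.0569, limma-trend). Of 16 circadian clock genes, 5 were lower and 1 higher. The repressor Ciart was at 9.82 to 11.7 and 7.08 to 8.47 FPKM (-0.47, adjusted p = 0.0521, limma-trend). Of 8 mural cell genes 4 were lower, with a median of -0.46, and Pdgfrb, the receptor that defines pericytes, had the smallest p (-0.43, adjusted p = 0.128, limma-trend). Without WT CON replicate 2, the library that stood apart, the medians were nearer to 0: -0.13 for the ribosomal proteins, -0.10 for the respiratory chain, -0.22 for the ATF4 genes, -0.12 for the clock genes and -0.27 for the mural cell genes.

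Markers of neighbouring tissue and of blood, and genes of antigen presentation, were examined in the same way. Of the choroid plexus (9 tested), ependyma (7), red cells (4), hypothalamus and midbrain (8) and antigen presentation (13) genes, 0 passed an unadjusted p under 0.05. Summed choroid plexus markers ranged from 96.8 to 437 FPKM in WT CON and from 105 to 642 FPKM in GFP-BM REPOP libraries. Of 8 cortex and 5 hippocampus markers, 1 of each passed: Lamp5 was lower (-0.61, adjusted p = 0.0793) and Prox1 higher (0.97, adjusted p = 0.0741, both limma-trend).

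Fold change followed the base composition of the transcripts. The GC content of the longest transcript, known for 13365 of the genes tested, had a median of 50.1% over all of them and of 40.6% over the rises outside the signature. Their median transcript length was 5673 bases, against 3456 over all genes. Among the 1337 genes with the lowest GC content (31.0 to 41.5%) the median fold change was 1.00, and 44 of the 70 DEGs outside the signature with a GC content fell there. Among the 1337 with the highest (58.2 to 72.8%) the median was -0.22. Over all genes with a GC content, Spearman's rho between fold change and GC content was -0.67, and between fold change and length it was 0.35. Genes of 1 library are not independent, and no test was made.

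The same pattern can be given for each library, from the same values and so not as separate evidence. The base composition of the reads was not measured. The GC measure of a library is the median log2 level of the tenth of genes with the highest GC content minus that of the tenth with the lowest. It was 1.08, 3.62, 2.12 and 1.37 in WT CON, 0.56, 0.43 and 0.77 in GFP-BM CON, and 0.73, 0.50, 0.48 and 0.93 in GFP-BM REPOP libraries. WT CON and GFP-BM REPOP libraries did not overlap, and the means differed by -1.39 (2.05 ± 1.14 and 0.66 ± 0.21, SD, n = 4 each, two-sided exact permutation test, p = 0.0286, the smallest p of 4 against 4). WT CON replicate 2, which stood apart, had the highest value. Replicate 1, the highest of its group for most risen genes, had the lowest value of the WT CON libraries. Over the 75 risen genes outside the signature, the median log2 level was 0.78, -1.05, -0.66 and 0.05 in WT CON and 1.99, 2.41, 2.5 and 1.45 in GFP-BM REPOP libraries.

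When each library was corrected for GC content and transcript length by splines, 66 genes were higher (0.494%) and 42 lower (0.314%) among the 13365. Of the 67 risen genes outside the signature with a GC content, 27 were still DEGs, and their median fold change went from 2.25 over all 75 to 1.18. Of the 15 signature DEGs, 13 were. Gpr65 (2.10, adjusted p = 0.0237), Mndal (1.68, adjusted p = 0.00644) and AB124611 (1.87, adjusted p = 0.0167) remained DEGs by limma-trend. Clec12a (1.22, adjusted p = 0.0546), Clec7a (0.98, adjusted p = 0.133), Mpeg1 (0.49, adjusted p = 0.146) and Ctsc (0.35, adjusted p = 0.49) did not pass by limma-trend. Gabra2 (2.25, adjusted p = 0.00278), Kcna3 (2.41, adjusted p = 0.0427), Syt10 (2.23, adjusted p = 0.04), Lrrtm2 (0.87, adjusted p = 0.019) and Malat1 (0.92, adjusted p = 0.0167) remained DEGs by limma-trend, whereas Gabrb1 (0.31, adjusted p = 0.38), Kcnq3 (0.65, adjusted p = 0.108), Pcdh11x (1.2, adjusted p = 0.0673), Erbb4 (0.85, adjusted p = 0.0992) and Zbtb20 (1.78, adjusted p = 0.0687) did not pass. Of the 8 zinc finger DEGs, Zfp72 and Zfp81 remained (adjusted p = 0.0433 and 0.0446, limma-trend) and the other 6 did not pass. Kcna3 has a GC content of 60.3%, the highest of the rises outside the signature. The tenth of genes with the highest GC content had a median of -0.22 before the correction, which therefore tends to raise their fold changes. That the fold change of Kcna3 was no smaller after it is thus built in.

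The medians of the gene lists moved with the same correction. GABA-A subunits went from 1.02 to 0.27, cadherins from 0.82 to 0.31 and zinc finger genes from 0.44 to 0.07. The ribosomal protein genes went from -0.22 to -0.09, the respiratory chain from -0.20 to -0.12, the ATF4 genes from -0.35 to -0.18 and the clock genes from -0.21 to -0.03. The rising and falling signature genes went from 2.00 to 1.99 and from -1.66 to -1.50. The homeostatic microglia genes moved away from 0, from -0.16 to -0.30, with Tmem119 as a DEG (-0.66, adjusted p = 0.0427, limma-trend).

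**Figure D3:**
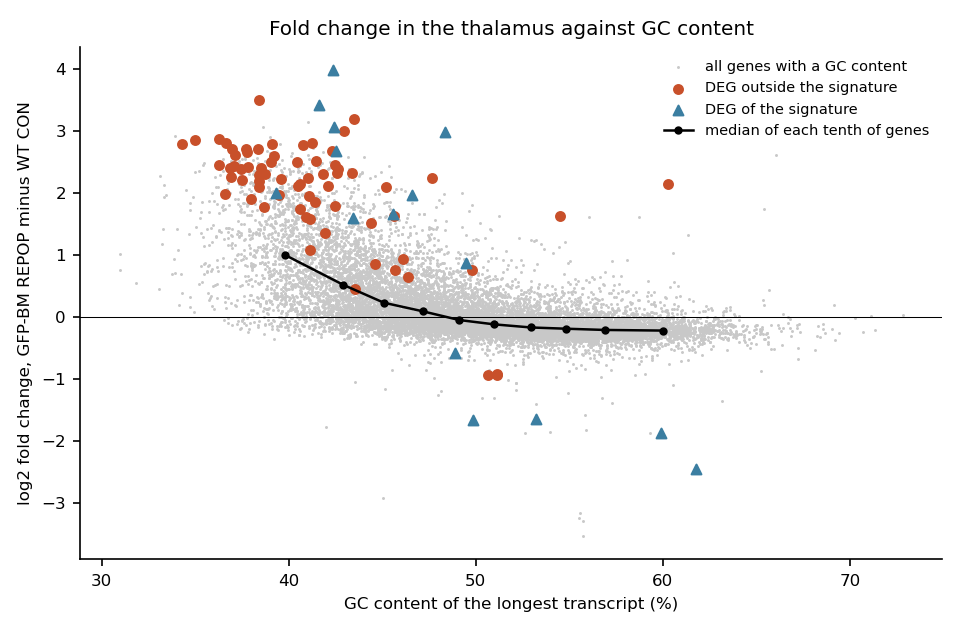
Log2 fold change between GFP-BM REPOP and WT CON thalamus (vertical axis) against the GC content in percent of the longest transcript (horizontal axis) for 13365 genes. Circles are DEGs outside the signature, triangles are DEGs of the signature, and the line joins the medians of 10 equal groups of genes by GC content and falls from 1.00 at low to -0.22 at high GC content.

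**Figure D4:**
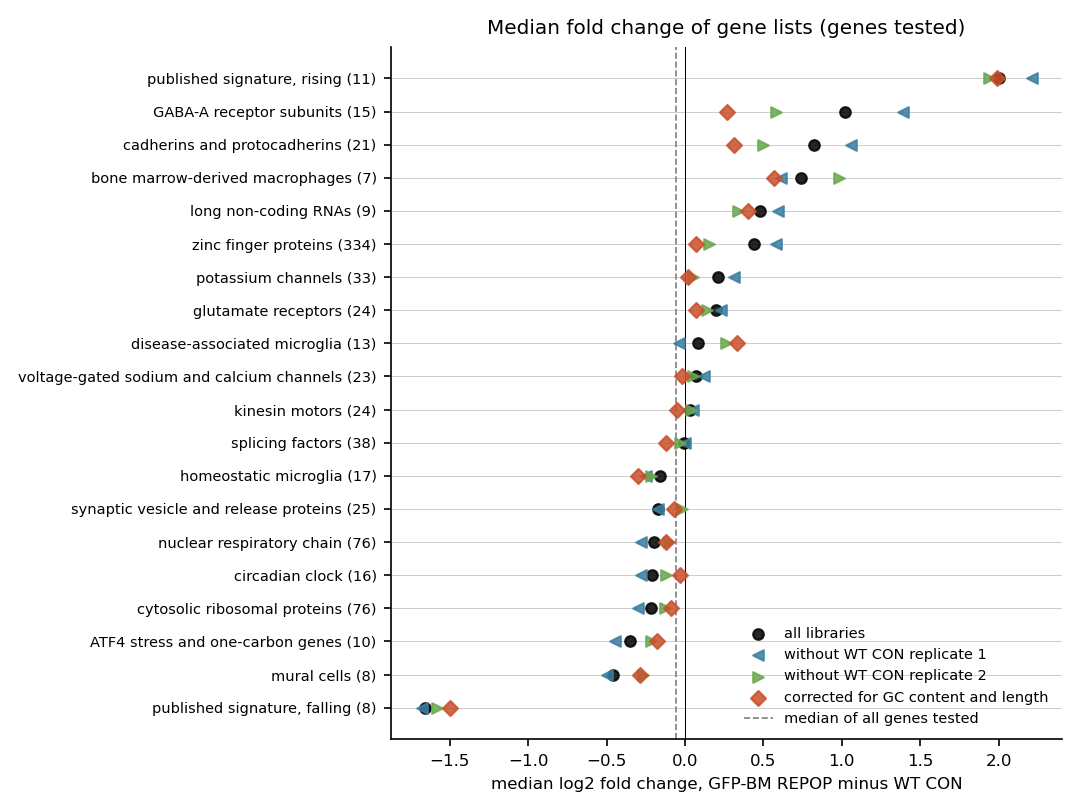
Median log2 fold change between GFP-BM REPOP and WT CON thalamus (horizontal axis) of 20 gene lists, with the number of genes tested in brackets. Symbols show the fit of all libraries, the fits without WT CON replicate 1 or 2, and the fit corrected for GC content and length; they lie between 1.94 and 2.21 for the rising signature genes and between 0.27 and 1.39 for the GABA-A receptor subunits.

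The GFP-BM CON libraries place the rises beside irradiation and marrow without the inhibitor. Both further contrasts share libraries with the main one, so their values are given side by side only. GFP-BM CON against WT CON had 0 DEGs (0%), with 2957 genes at an unadjusted p under 0.05 and a smallest adjusted p of 0.0609. GFP-BM REPOP against GFP-BM CON had 0 DEGs (0%), with 125 genes and 0.44 (all limma-trend). By voom on the recovered reads there were 0 in both contrasts. Without WT CON replicate 1, GFP-BM CON against WT CON had 1130 DEGs. For the 75 risen genes outside the signature the median was 2.36 in the contrast of GFP-BM CON with WT CON and -0.05 in that of GFP-BM REPOP with GFP-BM CON. For the 11 rising signature genes the same medians were 1.27 and 1.23. Gabra2 differed by 3.41 and 0.09 in these contrasts, Smc6 by 2.68 and -0.18, and Pcdh11x by 2.85 and 0.03. Gpr65 differed by 1.00 and 1.68, Clec7a by 0.54 and 1.21, Ctsc by 0.28 and 0.80, and Mpeg1 by 0.00 and 0.76. With adjusted p values of 0.44 or more, the differences of the last 4 genes from GFP-BM CON did not pass.

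The same contrast in the cortex (3 WT CON and 4 GFP-BM REPOP libraries) and hippocampus (4 and 4) was used to ask where the thalamus differs, in 1 fit of all 34 libraries with the animal as block. The difference of effects between the thalamus and the cortex passed for 0 genes (0%), with 749 at an unadjusted p under 0.05 and a smallest adjusted p of 0.584 (limma-trend). The 75 rises outside the signature had medians of 0.97 in the cortex and 0.80 in the hippocampus, and 75 and 73 of them were above 0 there. These genes were chosen for their effect in the thalamus libraries, so that a larger effect there is built in, and for 0 of the 78 DEGs outside the signature did the difference from either region pass. Gpr65 had like fold changes in the 3 regions, 2.59 in the cortex (adjusted p = 0.00324) and 2.52 in the hippocampus (adjusted p = 0.00087, both limma-trend). Its differences between the thalamus and these regions were 0.09 (SE 0.62) and 0.16 (SE 0.60). Mndal was at 1.77 in the cortex and 0.01 in the hippocampus, and Gabra2 at 1.85 and 2.21.

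Set against the hippocampus, the thalamus had a lower effect for 5 genes (0.0354%) and a higher one for none. They were Plxdc1, Il17d, Epop, Olfm2 and Vstm5, with differences of -1.25, -0.86, -1.45, -1.17 and -0.69 (adjusted p between 0.00399 and 0.0492, limma-trend). Plxdc1, a receptor of endothelium and neurons, was at 11.8, 16.2, 12.4 and 14.1 FPKM in WT CON and at 15.5, 12.4, 11.1 and 15 FPKM in GFP-BM REPOP thalamus, which overlapped. In the hippocampus it was at 5.53 to 7.80 FPKM in WT CON and 13.7 to 17.9 FPKM in GFP-BM REPOP libraries. The thalamus fold changes of the 5 genes lay between -0.30 and 0.00, none a DEG, and those of the hippocampus between 0.55 and 1.23. Plxdc1 passed whichever of the 8 thalamus libraries was left out, and the count of such genes then ranged from 1 to 16. No hippocampus library was left out, so that the dependence of these differences on single hippocampus libraries was not tested.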

How the data were processed

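RNA was measured by paired-end sequencing of whole tissue (34 libraries, 11 of thalamus with striatum). The deposited FPKM values were made by the authors from STAR alignments and featureCounts counts, with mm10 named as the build in the submitters' processing notes. Depth per gene is lost in FPKM, but whole reads were recovered from the steps of the values (100.0% of values whole within 0.01) and summed to 17085018 to 26010509 per library. Which library was run on which of the study's instruments is not given in the sources used here.

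Values were analysed as log2(FPKM + 0.1) with limma 3.58.1 in R 4.3.3 (empirical Bayes with trend, Benjamini-Hochberg). Genes needed an FPKM of 1 in at least 3 thalamus libraries, which 14433 did, and 326 of other biotypes than protein-coding or long non-coding were left out. Of those tested, 336 had no known biotype. Groups came from the labels. For the region differences 1 fit held the 34 libraries, and the mouse was a random effect. GC content and length came from the longest transcript of each gene (94.7% of the genes tested) and entered splines of 5 degrees of freedom. Gene positions are from RefSeq, GRCm38.p6. Scripts were tested on simulated data. Within a region the libraries are from separate mice, and p values measure the spread between them. By the animal numbers in the labels, the regions share mice.

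Named genes outside the signature were the 12 largest rises, all falls and the 8 smallest p among non-overlapping DEGs, each DEG of a gene list or else up to 3 of its members, and genes whose effect differed between regions. Other genes are said to be chosen after their values were seen, as were Kcna3, Kcnt2, Syt10, Erbb4, Igf1, Cd59a and Dynlt1b. Some genes that the rule names are not reported here. The comparison, the genes and the lists were chosen with earlier results of these data known. Alternatives were other pseudocounts, filters, normalizations, sample sets, weights, voom and left-out libraries. One further GFP-BM CON thalamus sample of the study was not analysed here.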

Additional observations from a re-analysis of the deposited data

Results flagged for a closer look

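In 6 of 124 groups of 4 libraries, 1 library lay further from its group than Dixon's 95% limit, and chance flags about 1 in 20 groups. WT CON replicate 1 was the high library for Kcnq3 (8.87 FPKM), Kcna3 (1.95 FPKM) and Zfp943 (1.11 FPKM). WT CON replicate 2 was the high library for Pdgfrb (8.22 FPKM) and Il17d (22.5 FPKM), and GFP-BM REPOP replicate 3 for Gabra2 (31.3 FPKM). Without WT CON replicate 1, the closest of its group to the GFP-BM REPOP libraries for most risen genes, each of the 78 DEGs outside the signature stayed a DEG. Without WT CON replicate 2, 29 of the 78 stayed. Without GFP-BM REPOP replicate 3 there were 12 DEGs in all.

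The contrast of GFP-BM REPOP with WT CON mice, which joins irradiation, marrow and inhibitor, differed between the thalamus and the hippocampus for 5 genes. This was by limma-trend with the animal as block. The difference was -1.25 for Plxdc1 (SE 0.19, adjusted p = 0.00399), -0.86 for the cytokine gene Il17d (SE 0.15, adjusted p = 0.0307) and -1.45 for Epop, of a Polycomb complex (SE 0.27, adjusted p = 0.038, all limma-trend). It was -1.17 for Olfm2, a secreted olfactomedin (SE 0.22, adjusted p = 0.0465), and -0.69 for Vstm5 (SE 0.13, adjusted p = 0.0492, both limma-trend). In the cortex the 5 effects lay between -0.02 and 0.12. Of 50 values for these genes with a thalamus library left out or under another setting, 22 no longer passed and 0 changed direction.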

How the results depend on the processing

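The count of 93 DEGs was 382 with a pseudocount of 1, 44 with 0.01, 248 with no filter, 28 with a mean FPKM of at least 1, 515 after quantile normalization and 37 after median-ratio scaling. It was 1945 with all 9 groups in 1 fit, 13 with only the 2 groups compared, 760 with array weights, 266 by voom on recovered reads, and 2112 with GC content and length corrected and WT CON replicate 1 left out (773 higher, 1339 lower). A filter on the 8 libraries (72), no trend (84), the GC and length correction (108) and its genes uncorrected (71, chosen after seeing the data) stayed within 1.5 times. Leaving out 1 library gave 12 to 1743, and WT CON replicates 1, 3 and 4 (1743, 15 and 31), GFP-BM CON replicates 1, 2 and 3 (32, 30 and 48) and GFP-BM REPOP replicates 1, 2 and 3 (16, 30 and 12) moved it past 1.5 times. The cause of these shifts was not tested.

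The replicate numbers do not pair the samples: same-numbered WT CON and GFP-BM REPOP libraries had correlated deviations of -0.212, -0.237, 0.115 and -0.337, and the replicate block gave 11 DEGs.

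GFP-BM CON against WT CON, with 0 DEGs, gave 245 with a pseudocount of 1, 317 after quantile normalization, 1320 with all 9 groups, 2 with the GC and length correction (chosen after seeing the data) and 0 to 1130 without 1 library, the latter without WT CON replicate 1. GFP-BM REPOP against GFP-BM CON gave 1 with a pseudocount of 1, 1 with only the 2 groups and 0 to 4 without 1 library, the latter without GFP-BM REPOP replicate 2. The thalamus minus cortex difference had 0 under every alternative run. The 5 genes of the thalamus minus hippocampus difference became 9 without the animal as block and 1 to 16 without 1 thalamus library. The count was 16 without WT CON replicate 1 or 4 and 2 without GFP-BM REPOP replicate 3. It was 1 without WT CON replicate 2 or 3 or GFP-BM REPOP replicate 1 or 2. The GC measure differed by -1.71 to -0.87 without 1 library, where 3 against 4 cannot go below p = 0.0571 in the exact permutation test. Over 56 named genes and 1443 values, 0 changed direction and 529 no longer passed. Where the groups do not overlap, leaving out a library cannot change the direction. Of 546 list medians, 32 moved by more than the spread.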

Other observations

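The remaining gene lists held 0 DEGs by limma-trend, and their counts are at an unadjusted p under 0.05. Of all genes tested, 15.1% were higher and 10.2% lower at that threshold, and several lists lay near these shares. Of 15 heat shock and chaperone genes, 5 were lower and 1 higher (median -0.21). Of 16 p53 targets, which respond to DNA damage, 4 were higher and 0 lower (median -0.09), and of 15 interferon-stimulated genes 2 were higher (median -0.14). Of 13 immediate early genes, which neuronal activity induces, 2 were lower (median -0.41). Of 13 interneuron and neuropeptide genes 1 was higher (median -0.12).

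Glial and vascular lists were counted likewise, against the same 15.1% of all genes higher and 10.2% lower. Of 15 astrocyte genes 1 was higher and 3 lower (median -0.14), of 14 myelin genes 3 and 2 (median -0.22), of 9 genes of oligodendrocyte precursors 3 and 2 (median -0.20), and of 15 endothelial genes 1 and 3 (median -0.21). Of 9 meningeal fibroblast genes 1 was higher (median -0.14), and of 3 tested border macrophage genes 1 was higher (median 0.44). Of 5 tested genes of neurogenesis and proliferation 2 were higher (median 0.48).

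Of 38 splicing factors 11 were higher and 9 lower (median -0.01), of 24 kinesins 5 and 2 (median 0.03), of 23 sodium and calcium channel genes 5 and 1 (median 0.07), and of 25 synaptic vesicle genes 3 and 2 (median -0.17). The shares over all genes were 15.1% higher and 10.2% lower.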
